A study of Mus musculus with 12 samples.

Results

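Female and male ARE-Del mice were compared by RNA sequencing of liver, with 3 libraries of each sex, or 6 of the 12 libraries of the series. In ARE-Del mice the Ifng gene has lost an AU-rich element of its 3′ untranslated region, which normally speeds the decay of the interferon-gamma (IFN-gamma) mRNA, and the series uses the allele as a model of chronic IFN-gamma expression. The extraction protocol writes the genotype as ARE-Del-/-. All animals were C57BL/6 mice 20 weeks old, and the other 6 libraries came from female and male wild-type (WT) littermates, 3 of each sex. The labels name no transgene or Cre driver. Frozen whole liver was ground before RNA extraction, so every cell type of the organ contributed RNA to every library.

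The genes compared were autosomal. A gene was taken as autosomal where RefSeq places its symbol on 1 of the 19 mouse autosomes, which held for 15527 of the 19852 genes in the deposited table. Of these, 9677 reached 0.5 RPKM (a read count divided by the transcript's length and by the mapped reads of its library) in at least 3 of the 12 libraries and were tested. Each difference is the female mean minus the male mean of log2(RPKM + 1), given ± its standard error, so a value above 0 means a higher level in females. Adding 1 before taking logs makes the difference of weakly expressed genes smaller than their ratio of RPKM. A gene was counted as higher in a sex where its limma p-value, adjusted over all 10568 genes tested, was under 0.05.

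Sex differences in mouse liver are set largely by growth hormone. Males release it in separated pulses and females almost continuously, and the transcription factor STAT5B carries that pattern to the hepatocyte genome. BCL6 acts in male liver as a repressor of female-biased genes, and CUX2, found mainly in female liver, represses male-biased genes and activates some female-biased ones. The genes they govern include cytochromes P450, sulfotransferases, steroid-converting enzymes and the major urinary proteins, which carry pheromones into male urine. IFN-gamma, made by T and natural killer (NK) cells, acts on many cell types to induce antigen presentation genes, chemokines and guanylate-binding proteins, and it activates macrophages.

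The Y-linked genes separated the libraries by their labels, while X-linked genes in female ARE-Del library 2 did not. Ddx3y, a Y-linked RNA helicase gene, was 9.34, 13.5 and 11.3 RPKM in the male ARE-Del libraries and 0 in each female one. Xist, the RNA that silences 1 X chromosome in female cells, was 45.6, 0.0456 and 40.6 RPKM in female ARE-Del libraries 1, 2 and 3, and at most 0.00397 RPKM in males. The second female library therefore had Xist near the male level. Its values of Utx, Jarid1c and Eif2s3x, X-linked genes that escape silencing, were 1.04, 1.98 and 10.8 RPKM, each below or within the range of the male libraries, whereas the other female libraries were above that range. Its autosomal sex-biased genes stood at female levels, as the values below show, and results were also computed without it. Ifng was under the filter at 0.208, 0.0898 and 0.238 RPKM in females and 0.0978, 0.123 and 0.0742 RPKM in males. The 2 sexes overlapped (exact permutation test, 2-sided p = 0.30, where 3 against 3 libraries cannot go below 0.1). Summed RPKM was 189580 to 208650 in the 6 ARE-Del libraries, and depth relative to the deepest library, read from the steps between low values, was 0.779 to 1. Female libraries had 10234 to 10528 genes at or above 0.5 RPKM and male libraries 9911 to 9991. Albumin (Alb), the main plasma protein made by hepatocytes, took 16% to 16.5% of summed RPKM in females and 8.56% to 12.5% in males. The labels do not say that each library is a separate mouse beyond giving n = 3, so p-values measure the spread between these libraries, which may be technical in part.

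In ARE-Del liver 2173 autosomal genes, 22.5% of those tested, differed between the sexes. Of these, 1605 (16.6% of genes tested) were higher in females and 568 (5.87%) higher in males. The median difference over all 9677 genes was 0.04 and the median standard error 0.08. In 2120 of the genes called, the libraries of the 2 sexes did not overlap, where 27.1% of all tested genes were without overlap and higher in females and 13.0% were without overlap and higher in males. Large differences were few: 153 of the called genes differed by at least 1 log2 unit, 94 of them higher in females, and 37 differed by at least 2, of which 20 were higher in females. The balance of directions depended on scaling. With RPKM as deposited 73.9% of called genes were higher in females, against 50% of 2586 called after median-of-ratios scaling and 46.1% of 2642 after quantile normalization, while the median over all genes moved from 0.04 to -0.01 and -0.03. Without the female library with little Xist, 1867 genes were called, 1506 higher in females and 361 higher in males, and 1623 of them were among the 2173. The count was 1234 without female ARE-Del library 3 and 1312 without male ARE-Del library 2.

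The largest differences in the female direction were in enzymes of foreign compound and steroid metabolism. By a rule of size, the genes furthest toward females included Cyp3a41a, Cyp2a4, A1bg, Sult3a1, Cyp2b9, Cyp2b13, Sult2a1, Cyp3a44, Atp6v0d2, Cyp3a16 and Mt2. Of these, 6 encode cytochromes P450 of the 2 and 3 families and 2 encode sulfotransferases. Because this set was chosen for its size, its values below are a description.

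Of the 9 leading female-higher genes for which RefSeq gives a promoter window 5 held a short sequence, shown here because these genes moved together. The letters ATTGAT, read on either strand, form the core of sites bound by HNF6 (Onecut1), a factor that acts with STAT5B at sex-biased genes. ATTGAT or its reverse complement ATCAAT was found within 250 bases before the start of Cyp3a41a, A1bg, Sult3a1, Cyp3a44 and Cyp3a16. In each line below (RefSeq, GRCm38.p6, 5′ to 3′ along the gene), capitals mark the match, whose first base lay at -71 in Cyp3a41a and Cyp3a44, -75 in Cyp3a16, -74 in Sult3a1 and -150 in A1bg, counted from the start of transcription.
Cyp3a41a, chr5:145720190-145720219, minus strand: gatgcaggggtaATCAATctactggctgaa
Cyp3a44, chr5:145805928-145805957, minus strand: gatgcaggggtaATCAATctactggctgaa
Cyp3a16, chr5:145469781-145469810, minus strand: gatgcaggggtaATCAATctactggctgaa
Sult3a1, chr10:33857636-33857665, plus strand: tttatttggttgATTGATtatttcctgcag
A1bg, chr15:60921403-60921432, minus strand: ttacgcattattATTGATtagcattattgc
The 3 Cyp3a stretches were identical over the 30 bases shown. Their 250-base upstream windows were 93.9% to 95.9% identical, so they are not independent matches. The form TTCNNNGAA, the pattern bound by STAT factors and equal to its own reverse complement, was found in A1bg at -84 and Sult3a1 at -109.
A1bg, chr15:60921337-60921366, minus strand: tctgcccctaccTTCCAGGAAgggcaaaca
Sult3a1, chr10:33857601-33857630, plus strand: tggtttggctgaTTCTTTGAAtagtttgtt
Over the windows of 7529 autosomal tested genes, 4.49% held ATTGAT on either strand and 7.09% held TTCNNNGAA, and over all 27025 windows the shares were 7.72% and 8.13%. A match is a string of letters in the reference genome, and binding was not measured here.

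Cyp2a4, a testosterone hydroxylase, was 209, 169 and 205 RPKM in the female libraries and 0.212, 0.324 and 0.891 RPKM in the male ones. Every female library was more than 100 RPKM and every male library under 1 RPKM, and the difference was 7.07 ± 0.16 (limma adjusted p = 2.8e-11). Its near-identical neighbour Cyp2a5 was 128, 198 and 126 RPKM in females and 168, 226 and 208 RPKM in males, with overlap between the sexes (-0.43 ± 0.23, limma adjusted p = 0.20). How reads shared by such pairs were counted is not given in the sources used here, so single members of the Cyp2a, Cyp2b, Cyp3a, Cyp4a12, Mup and Serpina1 groups are uncertain.

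Among the Cyp3a genes, whose products oxidise steroids and many drugs, 3 did not exceed 0.3 RPKM in any male library. Cyp3a41a was 175, 165 and 220.0 RPKM in females and 0, 0.0313 and 0 RPKM in males (7.52 ± 0.44, limma adjusted p = 4.2e-07). Cyp3a44 was 14.4, 11.5 and 14 RPKM in females and 0.3, 0.0164 and 0.125 RPKM in males (3.64 ± 0.34, limma adjusted p = 2.7e-05). Every female library was far above every male one for both genes. Cyp3a16 was lower, at 5.54, 7.58 and 12.2 RPKM in females, and it was listed at 0 in all 3 males (3.18 ± 0.82, limma adjusted p = 0.016). The family did not move as one. Cyp3a11, the main drug-induced member, was 327, 146 and 211 RPKM in females and 435, 738 and 437 RPKM in males, without overlap and higher in males (-1.26 ± 0.29, limma adjusted p = 0.0082). Cyp3a25 was also higher in males (-0.96 ± 0.16, limma adjusted p = 0.0012), while Cyp3a13 was 0.36 with an adjusted p of 0.11.

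The Cyp2b genes encode enzymes that the nuclear receptor CAR induces. Cyp2b9 was 70.1, 52.2 and 59.2 RPKM in females and at most 0.659 RPKM in males (5.67 ± 0.20, limma adjusted p = 2.2e-09). Cyp2b13 was 49.7, 33.4 and 49.5 RPKM in females and listed at 0 in all male libraries (5.48 ± 0.12, limma adjusted p = 2.8e-11). Both were thus female genes without overlap. Cyp2b10, the member most responsive to CAR, showed a smaller difference, with 23.2, 20.4 and 9.19 RPKM in females and 1.77, 8.52 and 3.44 RPKM in males (1.83 ± 0.40, limma adjusted p = 0.0063). The third female and the second male library were close for this gene, at 9.19 and 8.52 RPKM.

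The sulfotransferases Sult3a1 and Sult2a1, which add sulfate to steroids, bile acids and amines were female genes. Sult3a1 was 51.1, 56.4 and 61.5 RPKM in females and 0.0287, 0.0847 and 0.0239 RPKM in males (5.77 ± 0.12, limma adjusted p = 1.3e-11). Sult2a1 was 15.6, 24.7 and 28.1 RPKM in females and 0.0321, 0 and 0 RPKM in males (4.52 ± 0.82, limma adjusted p = 0.0021). All female libraries were above all male ones for both genes. A1bg, a plasma glycoprotein of the immunoglobulin superfamily, was 128, 84.5 and 33.5 RPKM in females, and no male library exceeded 0.0545 RPKM (6.14 ± 0.37, limma adjusted p = 5.6e-07).

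**Figure D1:**
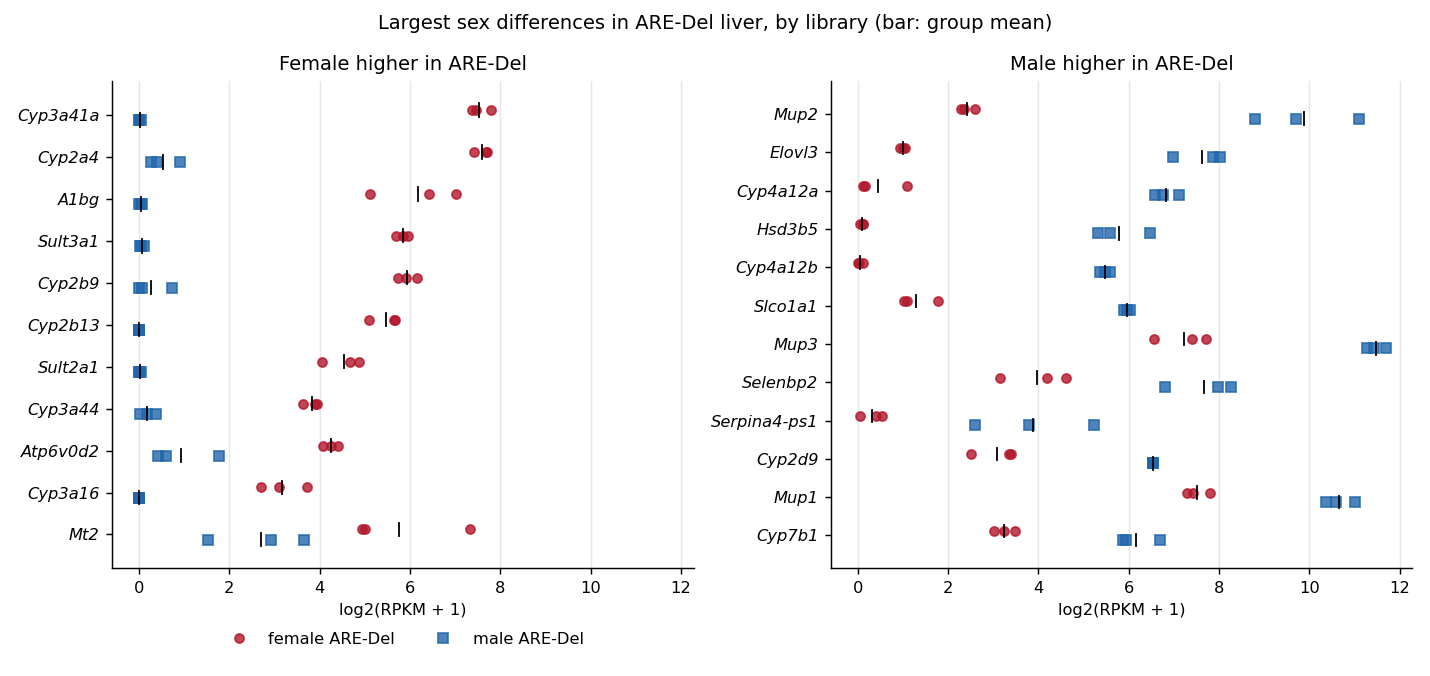
Level of 11 of the 12 genes with the largest difference toward females, and of the 12 toward males, in the 6 ARE-Del libraries; the horizontal axis is log2(RPKM + 1), each circle is a female and each square a male library, and the black tick is the mean of 3 libraries. In every gene shown the circles and squares stand apart, most narrowly for Mt2, whose lowest female library is at 29.5 RPKM and highest male library at 11.5 RPKM.

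Atp6v0d2 and Mt2 were of other kinds. Atp6v0d2, a subunit of the vacuolar proton pump, was 18, 20.3 and 15.8 RPKM in females and 0.509, 0.334 and 2.43 RPKM in males (3.31 ± 0.31, limma adjusted p = 2.9e-05). Mt2, a metal-binding metallothionein, was 29.5, 161 and 31.4 RPKM in females and 1.89, 6.61 and 11.5 RPKM in males (3.06 ± 0.92, limma adjusted p = 0.032). Most of the Mt2 spread came from the second female library, which was the highest, and without it the adjusted p was 0.11.

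A wider list of 33 genes known as female-biased in mouse liver had 25 tested members. Of these, 24 were higher in females, against 16.6% of all autosomal genes, and none was higher in males, with a median difference of 2.78 against 0.04 for all genes. Hamp2, a hepcidin relative, was 63.4, 37 and 90.2 RPKM in females and 2.02, 15.8 and 12.6 RPKM in males. Cyp17a1, a steroid hydroxylase and lyase, was 16.6, 36.5 and 15.4 RPKM in females and 1.41, 2.63 and 2.51 RPKM in males. The sexes did not overlap for either gene (2.78 ± 0.60, limma adjusted p = 0.0061, and 2.82 ± 0.40, limma adjusted p = 4.8e-04). Acot3, a peroxisomal acyl-CoA thioesterase, was 16.4, 2.38 and 4.66 RPKM in females and 0.143, 0.421 and 0.357 RPKM in males (2.41 ± 0.42, limma adjusted p = 0.0017). Abcd2, a peroxisomal transporter of very long fatty acids, was likewise higher in females (2.04 ± 0.27, limma adjusted p = 3.2e-04), as was Npal1, now named Nipal1 and encoding a magnesium transporter (1.84 ± 0.38, limma adjusted p = 0.0046). The 1 tested member that did not pass was Cyp4a14, a fatty acid hydroxylase induced through PPAR-alpha, at 36.3, 24.6 and 37.3 RPKM in females and 16, 21.4 and 50.2 RPKM in males (0.30 ± 0.43, limma adjusted p = 0.66). Its highest library was a male one. Members under the filter were not counted.

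In the male direction, urinary proteins, Cyp4a hydroxylases, a fatty acid elongase and a steroid dehydrogenase led. The 12 genes furthest toward males were Mup2, Elovl3, Cyp4a12a, Hsd3b5, Cyp4a12b, Slco1a1, Mup3, Selenbp2, Serpina4-ps1, Cyp2d9, Mup1 and Cyp7b1. Their values are again a description.

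The major urinary proteins are lipocalins that the liver secretes and the kidney passes into urine. Mup2 was 3.91, 5.08 and 4.1 RPKM in females and 2212, 836 and 447 RPKM in males (-7.46 ± 0.41, limma adjusted p = 2.7e-07). Male mean Mup2 was 267 times the female mean, and the male libraries ranged almost 5-fold among themselves. Mup3, which the table merges with another gene model, was 208, 93.2 and 167 RPKM in females and 3325, 2784 and 2495 RPKM in males (-4.26 ± 0.25, limma adjusted p = 4.4e-07). Mup1 was 155, 224 and 169.9 RPKM in females and 2070.5, 1543 and 1323 RPKM in males (-3.15 ± 0.22, limma adjusted p = 2.8e-06). All 3 tested Mup genes were higher in males with no overlap between the sexes. The promoters of Mup2 and Mup3 each held ATCAAT at 2 places, with first bases at -216 and -153 in Mup2 and at -162 and -100 in Mup3. The upstream match of each gene is shown, and its surroundings were nearly the same letters in both.
Mup2, chr4:60140055-60140084, minus strand: taagattactaaATCAATccataggttatg
Mup3, chr4:62087462-62087491, minus strand: taagactactaaATCAATccataggtgatg
These were 2 of the 6 male-leading genes with a window, and none of the 6 held TTCNNNGAA. ATTGAT and its complement were therefore present in genes of both directions.

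Cyp4a12a and Cyp4a12b encode nearly identical arachidonic acid hydroxylases. Cyp4a12a was 1.13, 0.0801 and 0.127 RPKM in females and 107, 138 and 95.5 RPKM in males (-6.37 ± 0.27, limma adjusted p = 1.4e-08). Cyp4a12b was at most 0.0925 RPKM in females and 43.8, 46.8 and 40 RPKM in males (-5.41 ± 0.07, limma adjusted p = 1.9e-13). Both were near 0 in all females. Elovl3, which lengthens saturated fatty acids, was 1.02, 0.92 and 1.06 RPKM in females and 233, 259 and 126 RPKM in males (-6.63 ± 0.26, limma adjusted p = 6.0e-09). Hsd3b5, a 3-ketosteroid reductase, was 0.0935, 0.0391 and 0.0797 RPKM in females and 87.4, 46.9 and 38.9 RPKM in males (-5.69 ± 0.38, limma adjusted p = 1.6e-06). The first male library had the highest Hsd3b5 of the 3. Slco1a1, an uptake transporter of organic anions, was 2.45, 1.03 and 1.14 RPKM in females and 63.9, 58.6 and 61.6 RPKM in males (-4.66 ± 0.40, limma adjusted p = 1.6e-05). Cyp2d9, a testosterone 16-alpha-hydroxylase that the table merges with another gene model, was 9.52, 4.67 and 9.27 RPKM in females and 92.7, 91.7 and 92.7 RPKM in males (-3.46 ± 0.24, limma adjusted p = 2.2e-06). Its male libraries were almost equal.

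Of 31 genes known as male-biased, 26 were tested. Of these, 24 were higher in males, against 5.87% of all autosomal genes, and none was higher in females (median difference -2.28). Gstp1, a glutathione S-transferase, was 156, 96.7 and 118 RPKM in females and 823, 824 and 499 RPKM in males (-2.51 ± 0.23, limma adjusted p = 3.1e-05). Nudt7, a peroxisomal CoA diphosphatase, was 14.7, 11.1 and 14.9 RPKM in females and 118, 112 and 64.7 RPKM in males (-2.73 ± 0.22, limma adjusted p = 1.1e-05). Neither gene's sexes overlapped. Egfr, the epidermal growth factor receptor, was higher in males at 56, 57 and 60.6 RPKM against 22.1, 21.2 and 29.1 RPKM (-1.24 ± 0.29, limma adjusted p = 0.0097). The 2 tested members that did not pass were Lcn13 (-0.38 ± 0.20, limma adjusted p = 0.20) and Bcl6.

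The regulators themselves gave a divided picture. Cux2, listed under its older name Cutl2, was 3.08, 2.05 and 1.82 RPKM in females and 0.0215, 0.0106 and 0 RPKM in males (1.70 ± 0.13, limma adjusted p = 4.7e-06). It was near 0 in every male. Bcl6 was 1.4, 1.44 and 0.641 RPKM in females and 0.578, 0.654 and 5.46 RPKM in males (-0.27 ± 0.42, limma adjusted p = 0.69). Only the third male library was high, and the first and second were below 2 of the females. The same library stood apart for Cish, a growth hormone-induced STAT5 inhibitor (1.68, 1.42 and 3.2 RPKM in females, 3.69, 5.4 and 0.685 RPKM in males), and for Onecut1, which encodes HNF6 (1.34, 0.839 and 2.73 RPKM in females, 5.13, 7.41 and 0.838 RPKM in males). For both it was the lowest of the 6, while the other males were the highest. None of the 3 genes passed, with adjusted p of 0.63 for Cish and 0.22 for Onecut1.

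Of 21 tested growth hormone signalling genes, 6 were higher in females (16.6% over all genes) and 1 in males (5.87% over all genes). The female-higher ones were Cutl2, Stat5b, Ptpn1, Ptpn6, Igfals and Igfbp4. Ptpn6, a phosphatase abundant in blood cells, was 15, 15.4 and 14.8 RPKM in females and 8.12, 6.83 and 8.08 RPKM in males (0.89 ± 0.10, limma adjusted p = 9.9e-05). Ptpn1, a phosphatase that acts on JAK2, was 4.54, 5.45 and 5.71 RPKM in females and 3.22, 3.1 and 3.07 RPKM in males (0.59 ± 0.08, limma adjusted p = 4.3e-04). Igfals, which holds insulin-like growth factor 1 in the circulation, differed by 0.61 ± 0.15 (limma adjusted p = 0.015). Ghr, the growth hormone receptor, was the male-higher member, at 25.8, 24.8 and 26.1 RPKM against 22, 18 and 21 RPKM in females (-0.32 ± 0.09, limma adjusted p = 0.029). The calls of Ghr and Stat5b were small. Ghr had an adjusted p of 0.099 without the second female library, and Stat5b (0.24 ± 0.07, limma adjusted p = 0.032) one of 0.061 after median-of-ratios scaling. Igf1, the main growth hormone target, was 33.3, 23.2 and 34.8 RPKM in females and 28, 32.8 and 26.8 RPKM in males, with overlap (0.04 ± 0.17, limma adjusted p = 0.89).

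Steroid receptors and enzymes leaned to males, with 8 of 17 tested members higher in males (background 5.87%) and 2 higher in females (background 16.6%). The female-higher members were Esr1 and Srd5a2. Esr1, the oestrogen receptor of liver, was 2.79, 2.37 and 2.18 RPKM in females and 0.828, 0.844 and 0.899 RPKM in males (0.89 ± 0.10, limma adjusted p = 1.0e-04). Srd5a1, a steroid 5-alpha-reductase, was 4.68, 3.86 and 4.23 RPKM in females and 11.2, 11.9 and 12 RPKM in males (-1.27 ± 0.11, limma adjusted p = 2.4e-05). The sexes were apart for both. Hsd17b11 (-0.55) and Akr1c6 (-0.49), which interconvert steroids, were higher in males with limma adjusted p of 8.2e-04 and 0.0069.

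The list of Cyp2 and Cyp3 genes, which also held Cyp1a2 and the partner gene Por, had 33 tested members. Of these, 13 were higher in females and 10 in males, against 16.6% and 5.87% of all genes. Cyp2c39, a retinoic acid hydroxylase, was 4.66, 4.44 and 3.8 RPKM in females and 0.179, 0.476 and 0.6 RPKM in males (1.91 ± 0.12, limma adjusted p = 1.1e-06). Cyp2c38 was 21.3, 15.7 and 17.8 RPKM in females and 2.79, 6.73 and 6.67 RPKM in males (1.65 ± 0.26, limma adjusted p = 9.2e-04). Both were without overlap, as was the male-higher Cyp2f2, which oxidises naphthalene, at 291, 347 and 296 RPKM in males and 197, 153 and 174 RPKM in females (-0.83 ± 0.11, limma adjusted p = 3.8e-04). Cyp2e1, which oxidises ethanol, was higher in males by a smaller step (-0.54 ± 0.15, limma adjusted p = 0.027), which had an adjusted p of 0.077 without the second female library.

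Flavin monooxygenases and conjugating enzymes split by family. Among the flavin monooxygenases, which oxidise nitrogen and sulfur in drugs, Fmo1 (0.64), Fmo2 (1.12) and Fmo4 (0.89) were higher in females, and Fmo5 (-0.92) was higher in males. Of 8 tested sulfotransferase genes 4 were higher in females, namely Sult3a1, Sult2a1, Sult1a1 and Papss2, which makes the sulfate donor, and none was higher in males. Glucuronosyltransferases went the other way, with 7 of 11 higher in males and 1, the merged Ugt1a entry, higher in females. Ugt2b1 was 59.4, 38.6 and 54.2 RPKM in females and 175, 175 and 180.4 RPKM in males (-1.81 ± 0.16, limma adjusted p = 2.1e-05). Ugt2b38 was at most 0.0845 RPKM in females and 3.52, 3. and 1.55 RPKM in males (-1.76 ± 0.24, limma adjusted p = 4.3e-04). In both genes every male was above every female. Of 18 glutathione S-transferases, 4 were higher in males (Gstp1, Gstp2, Mgst1 and Gsta3) and 2 in females (Mgst3 and Gstt2). For comparison with each family, 16.6% of all genes were higher in females and 5.87% in males.

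Of 24 transporter genes, 5 were higher in females, near the 16.6% over all genes, and 4 in males (5.87% over all genes). After median-of-ratios scaling 3 were higher in females, and after quantile normalization 2. Slco1a4, an organic anion transporter, was 12.1, 10.9 and 9.16 RPKM in females and 2.23, 3.29 and 3.36 RPKM in males (1.57 ± 0.13, limma adjusted p = 1.6e-05). Abcg2, which exports urate and drugs, was 5.11, 3.62 and 5.06 RPKM in females and 12.6, 12.8 and 11.7 RPKM in males (-1.27 ± 0.11, limma adjusted p = 2.4e-05). These 2 were without overlap and in opposite directions. The main bile acid uptake and export genes did not pass: Slc10a1 differed by 0.10 (adjusted p = 0.50 by limma) and Abcb11 by -0.15 (adjusted p = 0.41 by limma).

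In bile acid synthesis 6 of 17 tested genes were higher in males (5.87% over all genes) and 3 in females, near the 16.6% over all genes. After median-of-ratios scaling none was higher in females. Cyp7b1, the oxysterol hydroxylase of the acidic pathway, was 10.2, 7.09 and 8.47 RPKM in females and 103, 60.5 and 58 RPKM in males (-2.92 ± 0.24, limma adjusted p = 9.7e-06). Scp2, a sterol carrier and thiolase, was 204, 160.0 and 211 RPKM in females and 476, 475 and 423 RPKM in males (-1.26 ± 0.13, limma adjusted p = 5.8e-05). Cyp7a1, the rate-limiting enzyme of the classic pathway, went toward females at 53.2, 27.7 and 37.4 RPKM against 9.87, 14.3 and 27.8 RPKM in males. In this gene 1 female and 1 male library were almost equal (27.7 and 27.8 RPKM), so the Cyp7a1 difference of 1.21 ± 0.39 (limma adjusted p = 0.045) was overlapping, and after median-of-ratios scaling its adjusted p was 0.062.

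Lipid synthesis was mostly without a call. Of 20 tested cholesterol synthesis genes 1 was higher in females, the regulator Srebf2 (0.44 ± 0.13, limma adjusted p = 0.027), a share under the background. Of 20 fatty acid synthesis genes 2 were higher in males (Elovl3 and Mod1, now Me1) and 1 in females (Scd2). Fasn, fatty acid synthase, was 24.6, 20.2 and 24.2 RPKM in females and 19.2, 26.8 and 19 RPKM in males (0.09 ± 0.32, limma adjusted p = 0.86). Among 28 fatty acid oxidation genes, 4 were higher in each sex, against 16.6% and 5.87% of all genes. Without the second female library 5 were higher in females and 1 in males. Acaa1b, a peroxisomal thiolase, was 89.2, 57.3 and 82.5 RPKM in females and 178, 180.4 and 182 RPKM in males (-1.25 ± 0.17, limma adjusted p = 3.5e-04). Cd36, a fatty acid uptake receptor, was 10.2, 7.77 and 12 RPKM in females and 4.37, 3.62 and 2.89 RPKM in males (1.24 ± 0.18, limma adjusted p = 5.1e-04).

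**Figure D2:**
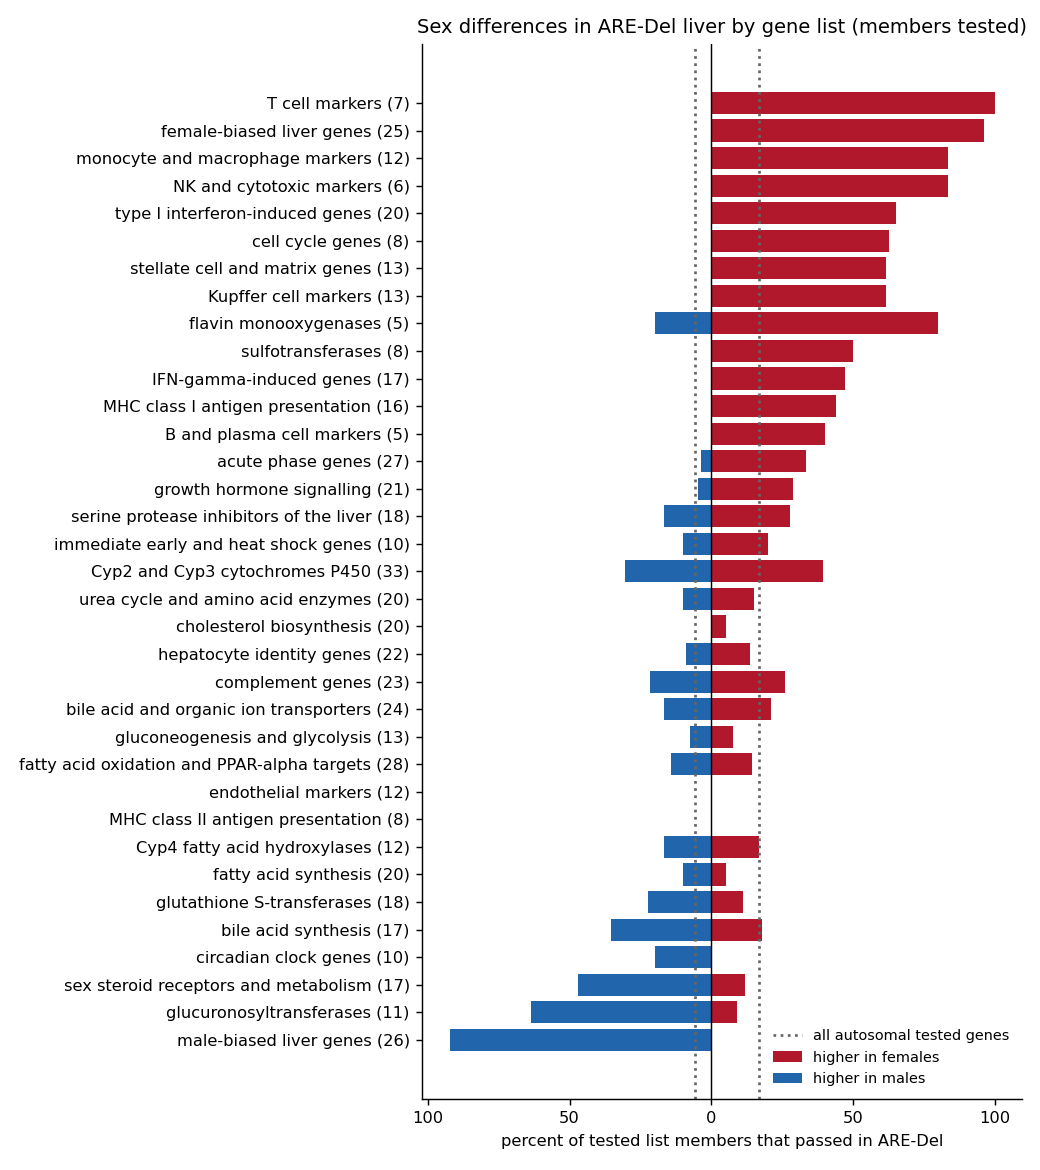
Share of the tested members of each gene list that passed in ARE-Del liver; bars to the right are members higher in females, bars to the left members higher in males, the number of tested members is in parentheses, and dotted lines mark 16.6% and 5.87%, the shares over all autosomal genes. Markers of T cells, of NK cells and of monocytes and macrophages lie at the female end with female-biased genes. Male-biased genes and glucuronosyltransferases lie at the male end.

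Secreted defence proteins differed in both directions. Of 23 tested complement genes 6 were higher in females and 5 in males, against 16.6% and 5.87% of all genes. The other 12 did not pass. The female-higher ones were the opsonin C3, the inhibitor Cfi, the lectin Mbl2 and the C1q chains C1qa, C1qb and C1qc, which macrophages make. C3 was 2281, 2735 and 2138 RPKM in females and 1307, 1186 and 1259.9 RPKM in males (0.92 ± 0.13, limma adjusted p = 5.6e-04). Of the 5 male-higher ones, C6, C8a, C8b and C9 encode parts of the membrane attack complex, and the other was C4a. C6 was 14.9, 17 and 17.1 RPKM in females and 85, 62.8 and 65.5 RPKM in males (-2.04 ± 0.23, limma adjusted p = 1.4e-04). C9 was 94.4, 104 and 90.6 RPKM in females and 210.5, 156 and 172 RPKM in males (-0.88 ± 0.16, limma adjusted p = 0.0020). No female library reached a male one for C6 or C9. Of 18 protease inhibitor genes 5 were higher in females and 3 in males, beside the same 16.6% and 5.87%. Serpina6, the corticosteroid-binding globulin, was 143, 172 and 134 RPKM in females and 60.8, 64.2 and 80.3 RPKM in males (1.12 ± 0.13, limma adjusted p = 1.8e-04). Serpina1e, an alpha-1-antitrypsin copy, was 1239, 1354 and 925 RPKM in females and 4400.4, 2430.3 and 4074 RPKM in males (-1.60 ± 0.38, limma adjusted p = 0.011).

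Of 27 tested acute phase genes 9 were higher in females (background 16.6%) and 1, Serpina3k, in males (background 5.87%), but this count depended on 1 library and on scaling. The second female library had the highest values of the 6 for Saa1 (129 RPKM), Lcn2 (72.7 RPKM), Orm2 (206 RPKM), Mt1 (280.1 RPKM) and Mt2. Without it, 3 acute phase genes were higher in females and 2 in males. With all libraries kept, 5 were higher in females and 1 in males after median-of-ratios scaling, and 11 and 1 after quantile normalization. Apcs, serum amyloid P, was 126, 263 and 104 RPKM in females and 69.1, 46.9 and 46.7 RPKM in males (1.49 ± 0.32, limma adjusted p = 0.0055), and without the second female library its adjusted p was 0.012. Haptoglobin (Hp) overlapped between the sexes at 1077, 2412 and 1318 RPKM in females and 1744, 1216 and 1295 RPKM in males.

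Interferon-responsive genes were higher in females in part. Of 17 tested genes induced by IFN-gamma, 8 were higher in females, against 16.6% of all autosomal genes, and none in males, with a median difference of 0.34. Gbp2, a guanylate-binding protein that acts against intracellular microbes, was 41.2, 24.7 and 35.1 RPKM in females and 11, 9.71 and 12.1 RPKM in males (1.51 ± 0.19, limma adjusted p = 2.1e-04). Cxcl9, a chemokine that attracts T cells, was 35.3, 24.4 and 32.8 RPKM in females and 15, 15.9 and 12.7 RPKM in males (1.03 ± 0.14, limma adjusted p = 4.4e-04). Cd274, which encodes the inhibitory ligand PD-L1, was 6.66, 3.65 and 4.91 RPKM in females and 2.16, 1.59 and 2.82 RPKM in males (0.92 ± 0.16, limma adjusted p = 0.0017). In these 3 genes all females were above all males, and the second female library was the lowest of its sex. Other members did not pass. Igtp, an interferon-induced GTPase, was 186, 105 and 146 RPKM in females and 133, 138 and 138 RPKM in males (adjusted p = 0.86 by limma). Without the second female library 11 of the list were higher in females. In WT liver 7 of the 17 were higher in females (background 6.67%) and none in males, with a median difference of 0.33. No member passed a test of whether its sex difference differed between the genotypes.

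Genes better known as targets of type I interferons followed the same direction, with 13 of 20 higher in females, against 16.6% of all genes. Oas1a, a sensor of double-stranded RNA, was 4.92, 4.84 and 4.46 RPKM in females and 2.49, 2.05 and 2.65 RPKM in males (0.76 ± 0.10, limma adjusted p = 4.1e-04). Ifit3 was 20.3, 16.2 and 14.3 RPKM in females and 9.17, 6.67 and 9.16 RPKM in males (0.94 ± 0.18, limma adjusted p = 0.0028). Both were without overlap. In MHC class I presentation, 7 of 16 genes were higher in females, against 16.6% of all genes. Among them were the peptide transporter subunit Tap2 (0.42 ± 0.09, limma adjusted p = 0.0066) and the immunoproteasome subunit Psmb10 (0.57 ± 0.10, limma adjusted p = 0.0022). None of 8 tested MHC class II genes passed. Cd74, the invariant chain, was 1011, 662 and 1013 RPKM in females and 822, 752 and 796 RPKM in males. The second female library was the lowest of all 6, and without it 4 of the 8 were higher in females. In WT 5 of the 20 type I interferon genes and 8 of the 16 class I genes were higher in females (background 6.67%). None of the 8 class II genes passed in WT. No member of these lists passed the test of a difference between genotypes.

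Markers of several immune cell types moved with these genes. Of 12 tested monocyte and macrophage markers on autosomes 10 were higher in females, against 16.6% of all genes, and none in males. Their median difference was 0.75. Itgax, the integrin CD11c, was 1.84, 3.25 and 2.56 RPKM in females and 0.904, 0.381 and 0.545 RPKM in males (1.13 ± 0.13, limma adjusted p = 1.5e-04). Fcgr4, a receptor for IgG, was 32.7, 61 and 34.7 RPKM in females and 17.3, 15.6 and 20 RPKM in males (1.18 ± 0.26, limma adjusted p = 0.0064). Tyrobp, an adaptor of activating receptors, was 56.9, 63.8 and 61.3 RPKM in females and 31.5, 25.8 and 32.3 RPKM in males (1.00 ± 0.21, limma adjusted p = 0.0047). The sexes were apart for all 3. The 2 tested markers that did not pass were Mpeg1 (0.37, adjusted p = 0.21 by limma) and Ccr2 (0.37, adjusted p = 0.068 by limma). Summed over the whole marker list, the level was 252.5 to 316 RPKM in females and 139 to 176 RPKM in males. In WT liver it was 30.2 to 50.7 and 23.6 to 40.2 RPKM.

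**Figure D3:**
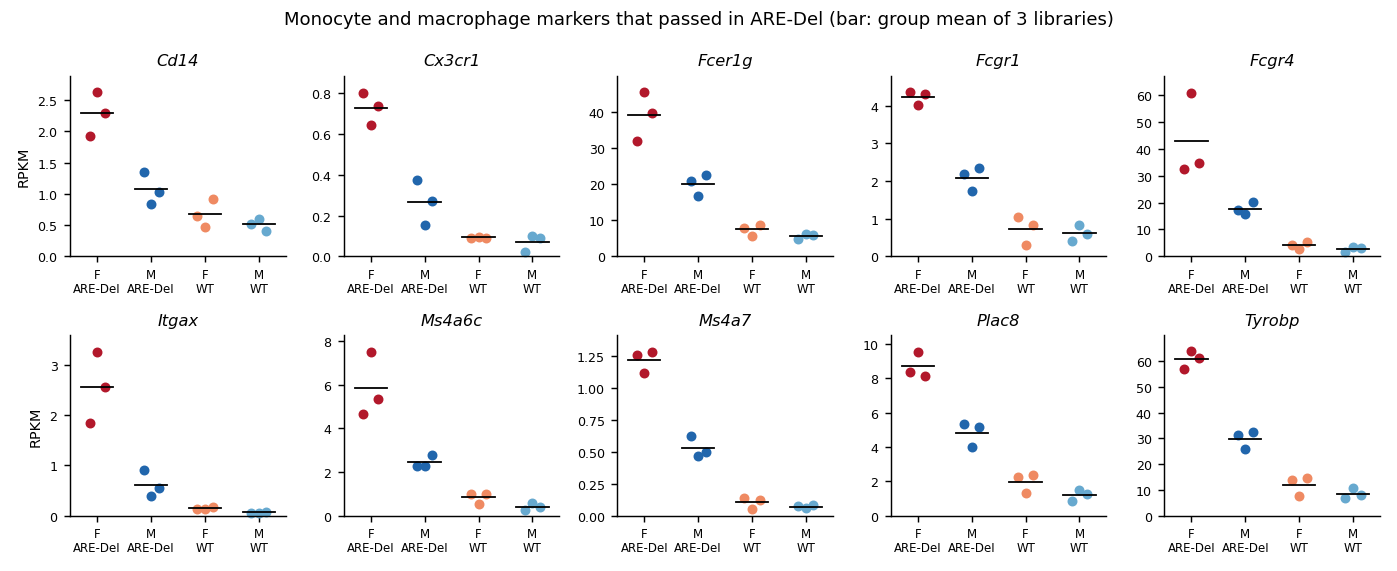
RPKM of the 10 autosomal monocyte and macrophage markers that passed in ARE-Del, in each of the 12 libraries; points are libraries, F and M are female and male, and the bar is the mean of 3. In each panel the 3 female ARE-Del points are above the 3 male ones, as for Tyrobp at 56.9 RPKM or more against 32.3 RPKM or less, and every female ARE-Del point is above every WT point.

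Kupffer cell markers, those of the resident liver macrophages, divided. Of 13 tested on autosomes, 8 were higher in females, against 16.6% of all genes. The summed list was 654 to 776 RPKM in females and 365 to 442 RPKM in males. Cd5l, a macrophage survival protein, was 175, 209 and 222 RPKM in females and 101, 79.8 and 112 RPKM in males (1.05 ± 0.24, limma adjusted p = 0.0090). The other 5 did not pass, Clec4f and Timd4 among them. Clec4f was 51.6, 59.4 and 54.4 RPKM in females and 43, 40.9 and 40.9 RPKM in males (adjusted p = 0.14 by limma). Timd4 was 6.01, 9.49 and 9.98 RPKM in females and 8.02, 7.72 and 6.22 RPKM in males (adjusted p = 0.63 by limma). Timd4 overlapped and Clec4f did not. All 7 tested T cell markers were higher in females (background 16.6%), at low levels. The list had 14 genes in the data, and the others were under the filter. At such levels a gene can pass the filter through the 3 female ARE-Del libraries alone, which favours members high there. The share among tested markers is therefore a description, while the sums given here include members under the filter. Cd8b1, a chain of the cytotoxic T cell co-receptor, was 1.14, 0.736 and 1.34 RPKM in females and 0.485, 0.282 and 0.534 RPKM in males (0.52 ± 0.12, limma adjusted p = 0.0073). The summed T cell list was 7.28 to 12 RPKM in females and 4.30 to 6.22 RPKM in males, and after quantile normalization 6 were tested and 4 passed. Of 6 tested NK and cytotoxic markers 5 were higher in females, against 16.6% of all genes (summed 10.9 to 15.4 RPKM against 7.03 to 10.1 RPKM), such as the chemokine Ccl5 at 2.61, 1.75 and 2.34 RPKM in females and 0.892, 0.763 and 1.56 RPKM in males (0.65 ± 0.13, limma adjusted p = 0.0045). After median-of-ratios scaling 3 of the 6 passed, and after quantile normalization 3 of 5 tested. The NK and cytotoxic list had 12 genes in the data, and the same limit of the filter holds for it. B and plasma cell markers overlapped when summed, at 25.7 to 33.3 RPKM in females and 26.9 to 37.2 RPKM in males, with 2 of 5 higher in females (Cd79b and Cd22). No marker on the T, NK, B, Kupffer or monocyte lists was at 0 in all 6 libraries. In ground tissue, fewer cells of a type and less RNA per cell cannot be told apart. The part of immune cell markers in the differences of the interferon, MHC and complement genes was not tested.

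Other cell types differed less evenly. Of 13 tested stellate cell and matrix genes 8 were higher in females (background 16.6%). Summed levels were 43.3 to 53.4 RPKM in females and 27.2 to 42.0 RPKM in males. Vim, an intermediate filament, was 8.99, 6.69 and 8.13 RPKM in females and 4.8, 3.3 and 4.05 RPKM in males (0.83 ± 0.13, limma adjusted p = 8.1e-04). None of 12 endothelial markers passed (summed 51.8 to 83.1 RPKM and 43.3 to 68.4 RPKM). Of 22 hepatocyte identity genes 3 were higher in females (Alb, Ahsg and Trf) and 2 in males (Apob among them). Over all genes the shares were 16.6% and 5.87%. Without the second female library none of the 22 was higher in males. Alb was 32826, 34499 and 33306 RPKM in females and 16223, 22301 and 24327 RPKM in males (0.70 ± 0.13, limma adjusted p = 0.0025), a difference that quantile normalization removes, since Alb then takes the top value in every library (adjusted p = 1.0).

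The same comparison in WT littermates used other libraries and called 931 autosomal genes (9.62%), of which 645 (6.67%) were higher in females and 286 (2.96%) in males. The WT balance also turned with scaling, from 69.3% of calls higher in females to 44.6% after median-of-ratios scaling and 42.3% after quantile normalization. In WT 18.9% of tested genes were without overlap and higher in females and 9.48% without overlap and higher in males. The WT count was 465 without male WT library 1 and 577 without female WT library 1. Both genotypes called 581 genes in the same direction, 402 higher in females and 179 higher in males. These were 26.7% of the ARE-Del calls and 62.4% of the WT calls. In opposite directions 2 genes were called, Cyp1a2 among them. Among large effects the overlap was closer to complete. Of 37 genes at 2 log2 units or more in ARE-Del, 35 were called in WT in the same direction, at any size. Of 48 genes at 2 log2 units or more in WT, 47 were called in ARE-Del in the same direction, at any size. Across the 9677 genes, which are not independent replicates, Pearson r of the 2 differences was 0.832. On the male-biased list 24 genes were higher in males in each genotype (median -2.39 in WT), and on the female-biased list 24 were higher in females in ARE-Del and 21 in WT (median 3.63). The size of the difference was smaller in ARE-Del than in WT in 19 of the 25 female-biased genes, all 8 sulfotransferase genes and all 20 cholesterol synthesis genes, against 41.9% of all autosomal genes tested. On the male-biased list it was smaller in ARE-Del in 11 of 26 genes, near that share, and larger in 15, the 3 Mup genes among them. These are counts and not tests. Of the 20 cholesterol synthesis genes 3 passed in WT, and none passed the test of a difference between genotypes. The summed cholesterol list was 815, 778 and 435 RPKM in female WT libraries 1, 2 and 3. The third lay within the male WT range of 396.5 to 535 RPKM.

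**Figure D4:**
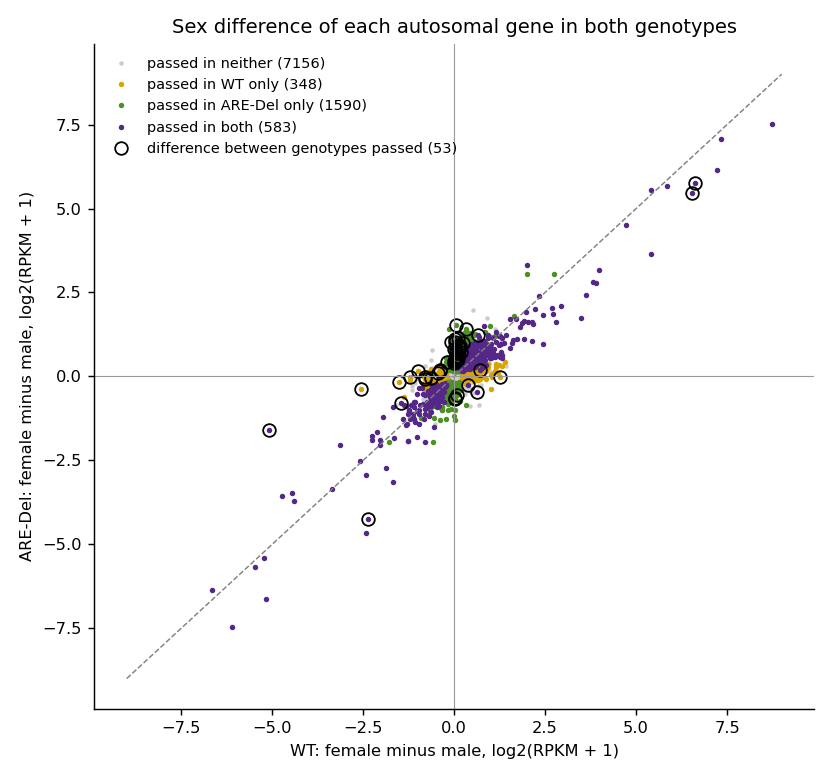
Female minus male difference in log2(RPKM + 1) of each of 9677 autosomal genes in WT (horizontal) and ARE-Del liver (vertical); colours give where a gene passed, circles mark the 53 genes whose difference itself differed between genotypes, and the dashed line marks equal differences. Of 37 genes at 2 log2 units or more in ARE-Del, 35 were called in the same direction in WT. Some lie away from the dashed line, such as Mup3 (-4.26 in ARE-Del, -2.36 in WT), as does Serpina1e (-1.60 and -5.09). Most of the 1590 genes called in ARE-Del only lie close to the centre.

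Another 1590 genes were called in ARE-Del and not in WT, and 348 in WT and not in ARE-Del, which does not by itself show that their sex difference differed. That was tested directly as the ARE-Del difference minus the WT difference, with a median standard error of 0.11. It passed for 53 autosomal genes (0.548%), 43 above 0 (0.444%) and 10 below 0 (0.103%), and 1116 had an unadjusted p under 0.05. Of the 53, 33 were among the 1590 and 11 among the 348. The count was unstable. It was 0 without male WT library 1, where 1087 genes had an unadjusted limma p under 0.05, and 4 to 13 without male WT library 2 or 3, female WT library 1 or 2, female ARE-Del library 3 or male ARE-Del library 2, and 25 without female WT library 3. A pseudocount of 0.1 gave 9 genes.

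Most of the 53 were higher in female than male ARE-Del liver with no call in WT, a pattern of 30 genes. Itgax and Ms4a7, 2 of the 12 tested monocyte and macrophage markers, were among them. Itgax was 0.135, 0.134 and 0.176 RPKM in female and 0.0585, 0.0526 and 0.0778 RPKM in male WT libraries, without overlap, whereas Ms4a7 overlapped in WT. At such levels adding 1 before taking logs makes a WT difference small. The lack of a call in WT therefore does not show that the sexes were equal there. Ms4a7, a macrophage membrane protein, was 1.26, 1.12 and 1.28 RPKM in female and 0.624, 0.464 and 0.497 RPKM in male ARE-Del libraries, and at most 0.136 RPKM in WT (difference between genotypes 0.50 ± 0.08, limma adjusted p = 0.021). Also of this pattern, and named after their values were seen, were the cytokine Il1b, the chemokine Ccl8 and the receptor Tlr1. Il1b was 3.1, 3.11 and 2.23 RPKM in female and 0.975, 0.943 and 1.08 RPKM in male ARE-Del libraries (0.80 ± 0.14, limma adjusted p = 0.038). Ccl8 was 2.7, 1.53 and 2.8 RPKM in females and 0.696, 0.498 and 0.422 RPKM in males (1.08 ± 0.19, limma adjusted p = 0.040). For Il1b, Ccl8 and Tlr1 every WT library was below every ARE-Del library, and the marker sums given above moved with them, whose part was not tested. H19, an imprinted RNA of fetal liver, was 1.46, 3.05 and 2.1 RPKM in female ARE-Del libraries and at most 0.193 RPKM in any other group (1.48 ± 0.19, limma adjusted p = 0.010). Col4a3, a basement membrane collagen chain, was 0.822, 0.648 and 1.09 RPKM in the same libraries and at most 0.0946 RPKM elsewhere (0.82 ± 0.10, limma adjusted p = 0.010). H19 and Col4a3 passed the filter only through the female ARE-Del libraries, the group where they were high, so their p-values are a description.

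A second pattern, in 10 genes, was a male excess in WT that was not called in ARE-Del. Clstn3, a calsyntenin, was 3.11, 2.28 and 3.23 RPKM in male WT libraries and at most 0.306 RPKM in male ARE-Del libraries (1.35 ± 0.12, limma adjusted p = 8.2e-04). Lcn13, a lipocalin of glucose metabolism, was 4.06, 8.15 and 3.45 RPKM in male WT and 0.48, 0.301 and 0.182 RPKM in male ARE-Del libraries (2.18 ± 0.28, limma adjusted p = 0.010). The female values of Lcn13 were 0 or near 0 in both genotypes. Mtnr1a, a melatonin receptor, was 1.05, 1.01 and 1.15 RPKM in male WT and 0.118, 0.116 and 0.18 RPKM in male ARE-Del libraries (0.70 ± 0.09, limma adjusted p = 0.011). In ARE-Del every male library was still above every female one for Clstn3, Lcn13 and Mtnr1a. Female ARE-Del libraries were at most 0.202, 0.0352 and 0.101 RPKM for these genes. At such levels adding 1 before taking logs makes the difference small. Clstn3, Lcn13 and Mtnr1a passed the filter only through the male WT libraries, the group where they were high, so their p-values are a description.

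**Figure D5:**
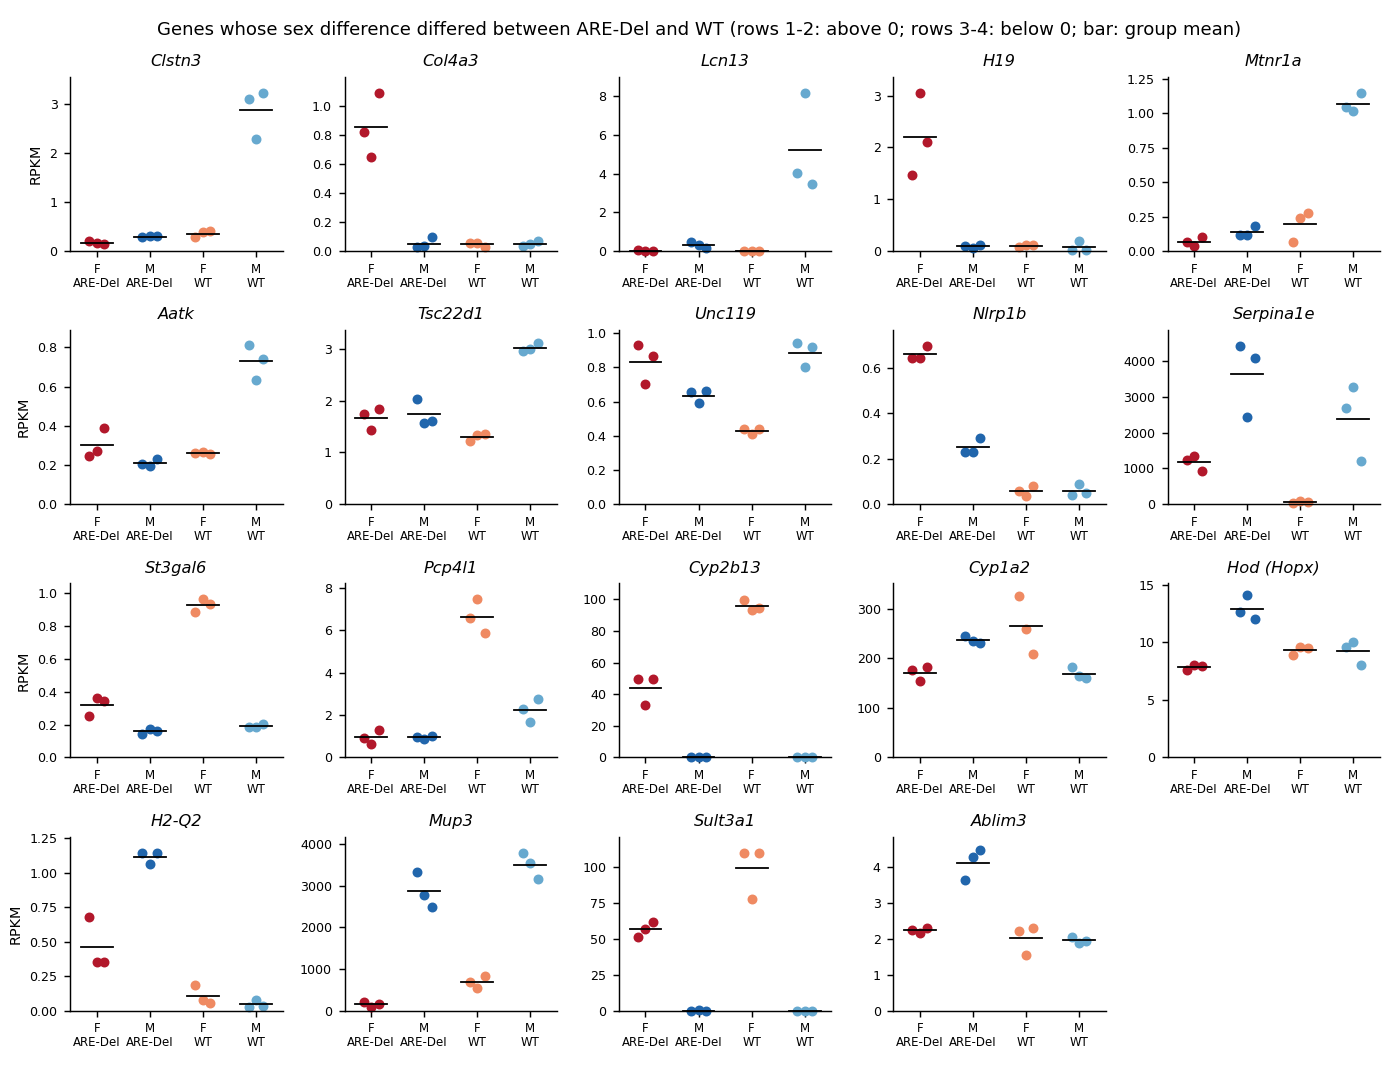
RPKM in each of the 12 libraries of 19 of the 20 genes, 10 of them above 0, with the smallest p in each direction for the difference between genotypes; points are libraries, F and M are female and male, bars are means of 3. In Clstn3, Lcn13 and Mtnr1a the male WT libraries stand above all others, and in Col4a3, H19 and Nlrp1b the female ARE-Del libraries do.

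Among sex-biased enzymes and secreted proteins, several kept their direction with another size. Cyp2b13 was 99.8, 93.3 and 94.8 RPKM in female WT against 49.7, 33.4 and 49.5 RPKM in female ARE-Del libraries (-1.05 ± 0.17, limma adjusted p = 0.028). Sult3a1 was 109, 77.8 and 109.5 RPKM in female WT libraries (-0.85 ± 0.16, limma adjusted p = 0.049). Both were lower in every female ARE-Del than in every female WT library. Serpina1e was 39.7, 95 and 67.1 RPKM in female WT and 1239, 1354 and 925 RPKM in female ARE-Del libraries, with male levels that overlapped between genotypes (3.49 ± 0.54, limma adjusted p = 0.020). The sex difference of Mup3 was larger in ARE-Del, where females had 208, 93.2 and 167 RPKM against 689, 535 and 842 RPKM in female WT (-1.89 ± 0.35, limma adjusted p = 0.043). Cyp1a2, which metabolises caffeine, was 176, 153 and 183 RPKM in female and 245, 236 and 231 RPKM in male ARE-Del libraries, but 325, 259 and 209 RPKM in female and 182, 165 and 160.4 RPKM in male WT libraries (-1.10 ± 0.19, limma adjusted p = 0.038). Without the second female ARE-Del library the sex difference within ARE-Del of Cyp1a2 had a limma adjusted p of 0.081.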

How the data were processed

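RNA from ground frozen liver was made into libraries with an Illumina TruSeq kit, per the labels' protocols. The authors deposited 1 table of RPKM values for 19852 genes in 12 libraries, which the submitters' processing notes tie to Trimmomatic 0.30, TopHat2 2.0.8, Partek, GenomeStudio 6.6 and the mm9 genome. The counting rule is not given in the sources used here, nor are the role of each tool and the use of strand, so overlapping and antisense genes cannot be told apart. RPKM divides by each library's total, so a few abundant genes can move all others, and the number of reads behind a value is unknown.

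Symbols were placed on chromosomes with RefSeq (GRCm38.p6, used for names, chromosomes and promoter windows only): 12447 identifiers matched by symbol, 3243 by synonym, 414 as merged entries that join symbols, and 3723 had no match. Genes with at least 0.5 RPKM in at least 3 of 12 libraries were tested with limma 3.58.1 (R 4.3.3) on log2(RPKM + 1), with 4 group means, a mean-variance trend in the spread shared by all groups, and Benjamini-Hochberg adjustment over 10568 genes. Genes under the filter were compared by 2-sided exact permutation tests. The code was tested on simulated data.

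Genes were named by rule: the check genes, the 12 largest called differences each way without overlap, the 10 smallest p each way for the difference between genotypes, up to 5 called members of each of 43 lists, and all members of the male-biased, female-biased, urinary protein and growth hormone lists. Other genes named, and the promoter stretches, were chosen after their values were seen. The comparison and the lists were chosen with earlier results of these data known. The 24 alternatives covered pseudocount, filter, scaling, spread model, adjustment set, a replicate block, separate fits of 6 libraries and leaving out each library. Some genes that met the naming rule are not reported here, and the counts still include them.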

Additional observations from a re-analysis of the deposited data

Results flagged for a closer look

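A test of the difference between the sex difference in ARE-Del and that in WT picked out 53 autosomal genes, and 19 of the 20 with the smallest p in each direction are given here as that difference in log2(RPKM + 1). Above 0, meaning further toward females in ARE-Del, were Clstn3 at 1.35, Lcn13 at 2.18, Mtnr1a at 0.70, Aatk at 0.56, Tsc22d1 at 0.77 and Unc119 at 0.56, all called higher in males in WT and not called in ARE-Del. Col4a3 at 0.82, H19 at 1.48 and Nlrp1b, an inflammasome sensor, at 0.41 were called higher in females in ARE-Del only, and Serpina1e at 3.49 was higher in males in both. Clstn3, Lcn13, Mtnr1a and Aatk passed the filter only through the male WT libraries. Col4a3, H19 and Nlrp1b did so only through the female ARE-Del libraries.

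Below 0, St3gal6, a sialyltransferase, at -0.51, Cyp2b13 at -1.05 and Sult3a1 at -0.85 were higher in females in both genotypes and less so in ARE-Del. St3gal6 passed the filter only through the female WT libraries. Pcp4l1 at -1.26 was higher in females in WT only. Cyp1a2 at -1.10 was higher in females in WT and in males in ARE-Del. Hod, the older name of Hopx, at -0.66, H2-Q2, a class I gene, at -0.62, and Ablim3, an actin-binding protein, at -0.68 were higher in males in ARE-Del only, and Mup3 at -1.89 was higher in males in both, more so in ARE-Del.

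None of 16 tested MHC class I presentation genes, a list without H2-Q2, was higher in males; H2-Q2 was 0.682, 0.352 and 0.355 RPKM in female and 1.15, 1.06 and 1.14 RPKM in male ARE-Del libraries, without overlap. Pcp4l1 was 6.58, 7.47 and 5.87 RPKM in female WT libraries and 0.617 to 1.3 RPKM in female ARE-Del libraries.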

How the results depend on the processing

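Of 254 named or listed genes called in ARE-Del, 181 kept the call and direction under every one of the alternatives run, 73 lost the call in at least 1 and none reversed. The count of 2173 ARE-Del calls was 1797 to 2642 when the pseudocount, filter, scaling, spread model or adjustment set was changed, and 1234 (without female ARE-Del library 3) to 2283 (without female WT library 2) when 1 library was left out; without male ARE-Del library 2 it was 1312. The WT count of 931 was 711 to 1369 under those changes, 465 (without male WT library 1) to 1010 (without female WT library 2) when 1 library was left out, and 577 without female WT library 1. The 53 differences between genotypes became 9 and 11 with pseudocounts of 0.1 and 0.5, 26 with no filter, 25 with a filter of 1 RPKM, 9 with a filter on mean RPKM, 35 after median-of-ratios scaling, 30 after quantile normalization, 32 without the variance trend and 70 with adjustment over autosomal genes only. Leaving out 1 library gave 0 (male WT library 1) to 65 (male ARE-Del library 3). A group left with 2 libraries still shares 1 pooled spread with the others. The causes of these shifts were not tested. Replicate numbers did not pair the samples: same-numbered libraries correlated at -0.303 to 0.294 in their deviations from group means, and only 5 of 18 such pairs exceeded 0.1, against 13 of 36 other pairs. A replicate block gave 1877 ARE-Del calls, 753 WT calls and 28 differences between genotypes. RPKM gives no read counts, so no counting interval can be set on low genes, and 3 libraries a side limit every single-gene value.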

Other observations

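Proliferation genes were among those higher in female ARE-Del liver. Of 8 tested cell cycle genes 5 were higher in females (Ccnd1, Mki67, Ccna2, Cdc2a and Mcm5), against 16.6% of all genes, and none in males. The list had 13 genes in the data. Low members can pass the filter through the female ARE-Del libraries alone, so this count is a description. Monocyte and macrophage markers (10 of 12 tested) and T cell markers (7 of 7 tested) were higher in the same libraries. Their part in the cell cycle differences was not tested. Ccnd1, cyclin D1, was 16.7, 10.5 and 20.8 RPKM in females and 4.04, 5.92 and 5.05 RPKM in males (1.47 ± 0.22, limma adjusted p = 7.2e-04). Mki67, a marker of dividing cells, was 1.16, 0.88 and 1.5 RPKM in females and 0.417, 0.355 and 0.515 RPKM in males (0.60 ± 0.12, limma adjusted p = 0.0038). The sexes were apart for both genes.

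Amino acid, glucose and clock genes had few calls, where 16.6% of all genes were higher in females and 5.87% in males. Of 20 urea cycle and amino acid genes 3 were higher in females (Hal, Agxt and Sardh) and 2 in males (Tdo2 among them). Tdo2, which starts tryptophan breakdown, was 172, 258 and 167 RPKM in females and 305, 423 and 386 RPKM in males (-0.91 ± 0.16, limma adjusted p = 0.0016). Among 13 glucose genes, Fbp1, a gluconeogenic phosphatase, was higher in females (0.39 ± 0.09, limma adjusted p = 0.0092). Of 10 clock genes, Cry1 (-0.68 ± 0.12, limma adjusted p = 0.0019) and Clock (-0.31 ± 0.10, limma adjusted p = 0.043) were higher in males, 1 of them without the second female library. Fos and Atf3, immediate early genes, were higher in females and the heat shock gene Hspa1b higher in males, out of 10.

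A few genes outside the lists, chosen after their values were seen, also differed. Lpl, lipoprotein lipase, was 20.1, 20.3 and 23.2 RPKM in female and 7.32, 4.08 and 12.4 RPKM in male ARE-Del libraries (1.42 ± 0.27, limma adjusted p = 0.0028), and 1.31 to 2.6 RPKM in WT libraries of both sexes. Nt5e, the ectonucleotidase CD73, was 6.17, 4.4 and 4.87 RPKM in females and 0.439, 0.532 and 0.552 RPKM in males. Scara5, a ferritin receptor, was 0.039, 0.23 and 0.169 RPKM in females and 4.32, 3.38 and 2.65 RPKM in males. Moxd1, a monooxygenase on the male-biased list and under the filter, was 0 in all females and 5.42, 0.251 and 0.0596 RPKM in males (exact permutation p = 0.10, the smallest possible).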
